A study of Mus musculus with 3 samples.

Results

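Transcripts of 6 genes of the Ly6 family were followed through 3 single-cell RNA libraries of mouse bone marrow. The members, Ly6a, Ly6c1, Ly6c2, Ly6d, Ly6e and Ly6g, were taken by symbol, and all 6 were present among the 32285 genes of the deposited matrices. Marrow was taken from the spines, hips, tibiae and femora of mice. For the lineage-negative fraction, a cocktail of antibodies to Ly-6C, Ly-6G, Ter119, CD8a, CD5, CD45R and CD11b was used. In the usual sense of the names, LSK cells are lineage-negative and carry Sca-1 and Kit, LK cells are lineage-negative and carry Kit, and TBM is total bone marrow, here also sorted. Each group is 1 library made with the 10x Genomics 3′ v2 kit, with no genetic change or treatment named. The labels give neither the strain, sex, age nor number of the mice, and do not say whether Sca-1 positive cells were kept out of the LK gate. Ly6a encodes Sca-1, Ly6c1 and Ly6c2 encode Ly-6C, and Ly6g encodes Ly-6G, so these 4 genes belong to the sort and their library levels check the labels. Ly6d and Ly6e encode no antigen named in the gates.

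Ly6 proteins are small cell-surface proteins held in the outer membrane by a glycosylphosphatidylinositol anchor, and they share a cysteine-rich fold with the urokinase receptor. Several serve as antigens for sorting blood cells: Sca-1 for stem and progenitor cells, Ly-6C for inflammatory monocytes and Ly-6G for neutrophils. Ly6d appears on lymphoid progenitors that become committed to the B lineage, and Ly6e is a broadly expressed, interferon-inducible member.

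The members lie in 1 cluster on chromosome 15 (GRCm38, the coordinates of mm10, from GENCODE M21). From left to right they are Ly6d (74762056 to 74763620, minus strand), Ly6e (74955051 to 74959905, plus strand), Ly6a (74994877 to 74998031, minus), Ly6c1 (75044018 to 75048830, minus), Ly6c2 (75108158 to 75111970, minus) and Ly6g (75155240 to 75159126, plus). All are protein-coding. The coding sequences of Ly6c1 and Ly6c2 were identical at 384 of 393 aligned positions (97.7%), while Ly6a matched Ly6g at 83.1% and Ly6c1 at 81.8%, and Ly6d and Ly6e matched any other member at 47.4% to 52.3%. Of the 411 windows of 90 bases in the last 500 bases of the transcript, 35 were identical between Ly6c1 and Ly6c2. For 358 of the Ly6c1 windows, Ly6c2 held a copy within 2 mismatches. Reads of this pair can therefore be lost or assigned to the wrong copy in counting, and the levels of Ly6c1 and Ly6c2 are uncertain to that extent. Copies within 2 mismatches were sought only in I830127L07Rik and in genes whose symbol begins with Ly6. There, no window of Ly6d, Ly6e or Ly6g had such a copy, and Ly6a had 1.

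Upstream sequence is shown for the 3 members that the RefSeq promoter table (GRCm38.p6) holds, because the Ly6c1 and Ly6c2 coding sequences are nearly alike while the counts of the pair differ widely. Each run is the 250 bases before the first RefSeq start, read 5′ to 3′ along the gene. Capitals mark GAGGAAGT, an ETS-type sequence of the kind bound by PU.1, and TATAAA, the TATA box.
Ly6c1 (chr15:75048838-75049087, minus strand): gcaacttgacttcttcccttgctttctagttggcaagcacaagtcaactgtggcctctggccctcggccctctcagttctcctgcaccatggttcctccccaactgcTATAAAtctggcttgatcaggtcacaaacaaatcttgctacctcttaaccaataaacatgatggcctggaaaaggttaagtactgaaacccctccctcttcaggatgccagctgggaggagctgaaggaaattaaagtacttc
Ly6c2 (chr15:75111972-75112221, minus strand): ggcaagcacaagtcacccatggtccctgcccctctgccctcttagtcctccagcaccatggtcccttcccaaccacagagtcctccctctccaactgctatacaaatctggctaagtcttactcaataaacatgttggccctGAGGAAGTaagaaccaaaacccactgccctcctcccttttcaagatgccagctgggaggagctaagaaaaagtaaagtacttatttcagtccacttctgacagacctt
Ly6g (chr15:75155011-75155260, plus strand): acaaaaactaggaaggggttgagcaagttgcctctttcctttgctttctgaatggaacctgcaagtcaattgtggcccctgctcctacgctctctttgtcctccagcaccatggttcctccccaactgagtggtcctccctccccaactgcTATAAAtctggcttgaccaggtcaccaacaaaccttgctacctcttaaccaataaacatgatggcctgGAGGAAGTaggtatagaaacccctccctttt

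The Ly6c1 and Ly6c2 windows aligned at 57.7% identity, the Ly6c1 and Ly6g windows at 58.5%, and the Ly6c2 and Ly6g windows at 42.5%. The Ly6c2 window held GAGGAAGT and no TATAAA, the Ly6c1 window held TATAAA and no GAGGAAGT, and the Ly6g window held both. A second RefSeq start of Ly6c1, further downstream, did have GAGGAAGT in its 250 upstream bases. The windows of the second starts of Ly6c2 and Ly6g held GAGGAAGT as well, and that of Ly6g also held TATAAA. On either strand, GAGGAAGT occurred in 2.44% and TATAAA in 12.4% of 32851 promoter windows of the same length. A C/EBP sequence, also searched for, lay in the printed Ly6g window and in 9.56% of those promoter windows. An interferon-stimulated response element and a gamma-activated site were searched for too and had no match in the windows of these genes. The motifs were picked after these sequences had been seen, and a match describes letters, not a bound site.

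Levels are given as CPM, the UMIs (counted molecules) of a gene per 1000000 UMIs, in a whole library or in 1 class of its cells, with 95% intervals that cover counting error only. After filtering, LSK held 1067 cells (11836820 UMIs), LK 3453 (49711898) and TBM 4214 (21940695), with medians of 9688, 13654 and 3346.5 UMIs per cell. With 1 library per group there was no replicate check and no test. Cell barcodes shared between libraries numbered 6 (LSK and LK), 6 (LSK and TBM) and 25 (LK and TBM), and leaving out all of them moved none of 26 main values outside its interval. A gene is called higher or lower where the CPM ratio is at least 2-fold, with the lower side set to no fewer than 3 UMIs, among genes with at least 20 UMIs over both groups. CPM are relative to each library's total: over all such genes the median log2 ratio was 0.34 between LSK and LK, 0.37 between LK and TBM, and 0.67 between LSK and TBM.

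Ly6a followed the Sca-1 gate. It stood at 101 CPM in LSK (95.3 to 107), 7.72 in LK (6.97 to 8.54) and 30.8 in TBM (28.5 to 33.2), so LSK was 13.1-fold above LK (log2 ratio 3.71, 3.54 to 3.88). Ly6g, an antigen of the depletion cocktail, had 0 UMIs in LSK (interval up to 0.312 CPM), 5 UMIs in LK (0.101 CPM) and 237 CPM in TBM. With LSK set to a floor of 3 UMIs (0.253 CPM), it was 935-fold below TBM for Ly6g. The upper bound of the exact interval of the log2 ratio was -9.57. These levels are descriptions, since both antigens belong to the sort.

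Ly6c2 was abundant in LK, although antibodies to Ly-6C were in the cocktail. Its level was 691 CPM in LK (684 to 698), against 1316 in TBM (1301 to 1331) and 22.9 in LSK (20.2 to 25.8). LK was 30.2-fold above LSK and 1.90-fold below TBM. The log2 ratio of LSK over LK for Ly6c2 was -4.92, and -5.72 with cells weighted equally or -6.53 in cells thinned to 1000 UMIs. Ly6c1 had 4, 43 and 21 UMIs in LSK, LK and TBM, which is 0.338 CPM (0.0921 to 0.865), 0.865 (0.626 to 1.17) and 0.957 (0.592 to 1.46). The Ly6c1 intervals of LK and TBM overlap, and no order of its libraries can be read at this depth. The antibody recognises a surface protein and the counts are of RNA, so the library values do not show how much Ly-6C the LK cells carried.

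Of the members outside the gates, Ly6e differed less between libraries than Ly6d. Ly6e stood at 668 CPM in LSK (654 to 683), 709 in LK (702 to 717) and 935 in TBM (922 to 948). Its log2 ratio of LSK over LK was -0.09 (-0.12 to -0.05), and -0.36 when libraries were scaled by the median ratio of all genes in place of the total. For LK over TBM it was -0.40 (-0.42 to -0.37), and -0.79 with that scaling. For LSK over TBM the Ly6e ratio was -0.48 (-0.52 to -0.45), and -1.16 with that scaling, which is past 2-fold; the Ly6a ratio of LSK over TBM went from 1.71 to 1.04. Ly6d stood at 8.62 CPM in LSK (7.03 to 10.5), 0.966 in LK (0.712 to 1.28) and 535 in TBM (526 to 545), so TBM was 554-fold above LK and 62.1-fold above LSK. The log2 ratio of LK over TBM for Ly6d was -9.11, and -10.52 with cells weighted equally or -11.11 in cells thinned to 1000 UMIs. For LSK over TBM the Ly6d ratio was -5.96, -8.23 and -7.83 in the same order. The Ly6d level of TBM itself was 1252 CPM with cells weighted equally and 1283 thinned, and the Ly6a level was 56.8 and 55.8.

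Between LSK and LK, 5 members had enough UMIs to be called: Ly6a and Ly6d were higher in LSK, where 19.9% of 13011 genes were, and Ly6c1 and Ly6c2 were lower, where 3.76% were. The Ly6c1 interval (log2 ratio -1.36, -3.30 to 0.10) includes no difference. Between LK and TBM, 3 of 6 members (Ly6a, Ly6d and Ly6g) were lower in LK, against 16.7% of 13412 genes, and none was higher, against 27.2%. Between LSK and TBM, Ly6a was higher in LSK, against 36.9% of 12916 genes, and Ly6c1, Ly6c2, Ly6d and Ly6g were lower, against 13.1%. The Ly6c1 call rests on 4 UMIs against 21, and its log2 interval (-3.50 to 0.07) includes no difference. Since 4 of the 6 genes belong to the sort, the counts say nothing beyond the gates about those 4.

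**Figure D1:**
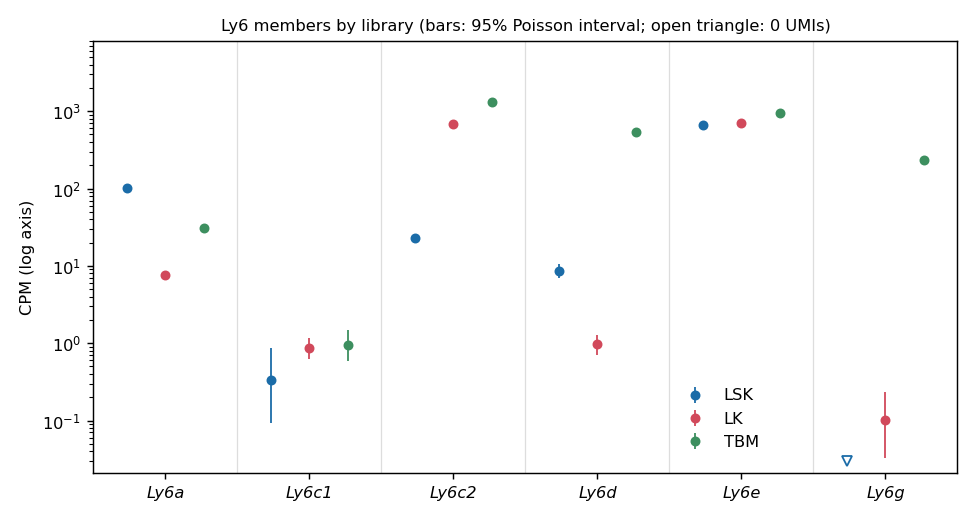
CPM of each member (log axis) in the LSK, LK and TBM libraries, 1 point per library with its 95% Poisson interval, and an open triangle at the axis floor for 0 UMIs. Ly6a is highest in LSK (101 CPM), Ly6d and Ly6g in TBM (535 and 237 CPM), and Ly6e lies between 668 and 935 CPM in all 3.

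The members also differed in how their UMIs spread over cells. Ly6e was seen in 1053 of 1067 LSK cells (98.7%) and 3325 of 3453 LK cells (96.3%), and in 66.8% of the shallower TBM cells. With every cell thinned to 1000 UMIs, the share of cells with an Ly6e UMI was 47.8% in LSK (44.8% to 50.8%), 47.8% in LK (46.1% to 49.5%) and 48.9% in TBM (47.3% to 50.4%), so the Ly6e shares overlap once depth is matched. Ly6a was seen in 554 LSK cells (51.9%), of which 271 had a single UMI, and 513 cells of the Sca-1 gate had none. After thinning, the Ly6a share was 11.7% in LSK (9.85% to 13.8%), 1.30% in LK (0.953% to 1.74%) and 4.16% in TBM (3.57% to 4.82%). The share in the S100a8 class of TBM, defined below, was 0.426%, and free RNA was not measured in LSK or LK. The LSK cells without an Ly6a UMI had a median depth of 10195 UMIs and those with one 9374.5, and the part of depth was not tested.

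Ly6c2 in LK was absent from many cells and high in others: 1840 LK cells had none, 414 had 1 UMI and 678 had 20 or more, up to 133. The LK cells with an Ly6c2 UMI had a median depth of 19272 UMIs against 9240.5 for those without. At 1000 UMIs per cell, 22.9% of LK cells (21.5% to 24.3%) and 36.5% of TBM cells (35.0% to 38.0%) had an Ly6c2 UMI, against 0.469% in LSK (0.152% to 1.09%). The thinned share of Ly6d was 29.0% in TBM (27.6% to 30.5%) and that of Ly6g was 16.6% (15.5% to 17.8%).

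**Figure D2:**
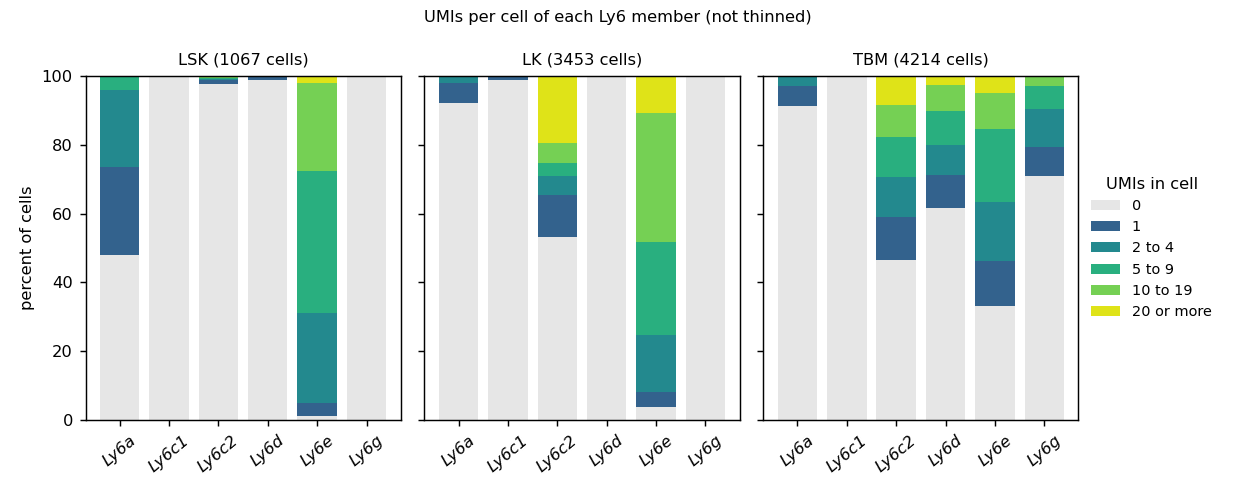
Percent of cells of each library by the number of UMIs they hold of each member, not thinned, so the depth of TBM cells is lower than that of LSK and LK cells. Ly6c2 in LK has both 1840 cells with no UMI and 678 with 20 or more, while Ly6e is seen in 98.7% of LSK cells.

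A few cells carried most of the rare members in LSK and LK. The 5 cells with most Ly6d held 93.1% of its 102 UMIs in LSK, and 5 cells held 72.0% of the 271 Ly6c2 UMIs there. Without those 5 cells the LSK level was 0.597 CPM for Ly6d and 6.50 CPM for Ly6c2, and with 5 cells left out of each library the log2 ratio of LSK over LK for Ly6c2 was -6.71. The Ly6d cells with 40, 32 and 10 UMIs also held 41, 45 and 28 UMIs of Dntt, the template-independent DNA polymerase of early lymphoid cells, and 7, 19 and 32 of Cd79a, a signalling chain of the B cell receptor. The 5 cells with most Ly6c2 held 17 to 61 of its UMIs and, in each, 74 to 511 UMIs of Elane and 213 to 475 of Mpo, proteases and peroxidase of granulocyte precursors. These Ly6c2 cells had 2 or fewer UMIs of Kit and of Ly6a. A further LSK cell had 54 Ly6a, 42 Ly6e and 12 Ly6d UMIs together with 2064 UMIs of Jchain, the joining chain of secreted antibodies. Without that cell Ly6a in LSK was 96.6 CPM. In LK, 45 of the 48 Ly6d UMIs lay in 1 cell, which also held 4 UMIs of Siglech, a receptor of plasmacytoid dendritic cells. The Ly6d difference of 8.92-fold between LSK and LK therefore rests on 4 LSK cells with 10 or more UMIs each and on 1 LK cell. With cells weighted equally, the log2 ratio of LSK over LK for Ly6d was 2.29 in place of 3.16.

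TBM was divided by the lineage genes named for this family: S100a8 (a calprotectin subunit of neutrophils, at least 2% of a cell's UMIs), Cd79a (at least 2 UMIs), Cd3e (a chain of the T cell receptor complex), Siglech and Ccr2 (a chemokine receptor of monocytes), the last 3 at 1 UMI or more. Cells with more than 1 of these, other than Siglech with Ccr2, were set aside. This gave 1497 S100a8, 1317 Cd79a, 87 Cd3e, 37 Siglech and 502 Ccr2 cells, 641 with no marker and 133 set aside. The cells set aside still counted among the other cells wherever a class was compared with the rest of TBM. All 6 neutrophil markers were highest in the S100a8 class, all 6 B cell markers in Cd79a, all 6 T cell markers in Cd3e, all 6 plasmacytoid dendritic cell markers in Siglech and 5 of 6 monocyte markers in Ccr2. The Cd3e class was also highest for 4 of 5 NK cell markers (1202 CPM summed). The Siglech class was also highest for 4 of 4 megakaryocyte markers (1553 CPM summed), and for 4 of 6 endothelial markers (186 CPM summed), with Emcn and Cldn5 at 0. The unmarked cells were highest for all 6 erythroblast markers (355749 CPM summed), for 4 of 5 granulocyte-monocyte progenitor markers (5979 CPM summed) and for 4 of 5 mast cell and basophil markers (2340 CPM). The Cd79a class was highest for 3 of 4 plasma cell markers (3958 CPM). The part of these other markers in the member levels was not tested. Median depth per cell ran from 1944 UMIs in Cd79a to 7060 in the unmarked cells.

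Ly6g was a transcript of the S100a8 class. It stood at 657 CPM there (639 to 676) and at 7.36 to 11.8 CPM in the other 5 classes. The difference from all other TBM cells was 20.2-fold (log2 ratio 4.34, 4.20 to 4.48). Those other cells include the 133 set aside, which held 6.79% of the Ly6g UMIs of TBM. Among them, 62 had both S100a8 and Ccr2. The log2 ratio was 3.29 with looser and 5.30 with stricter marker classes, and 4.99 in cells thinned to 1000 UMIs. In thinned cells, 44.9% of the S100a8 class (42.3% to 47.5%) had an Ly6g UMI, against 0.536% of Cd79a and 0.802% of Ccr2 cells, a level read as background. Of the other members in the S100a8 class, Ly6c2 stood at 1468 CPM (1440 to 1496), Ly6e at 84.8 (78.2 to 91.8), Ly6d at 28.3 and Ly6a at 4.60. Ly6e had its lowest class level in these cells, and Ly6a too, though the Ly6a interval (3.16 to 6.45) overlaps that of the unmarked cells. Ly6g was the single member at least 2-fold higher in this class than in the rest of TBM, where 7.18% of 11552 genes were, and Ly6a, Ly6c1, Ly6d and Ly6e were at least 2-fold lower, as were 56.8% of genes. The Ly6c1 call rests on 3 UMIs against 18, and its log2 interval (-3.95 to 0.23) includes no difference.

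Ly6d was a transcript of the Cd79a and Siglech classes. It stood at 2647 CPM in Cd79a cells (2595 to 2699) and 2983 in Siglech cells (2767 to 3211), against 19.9 to 48.8 CPM in the other 4. Thinned to 1000 UMIs, 81.3% of Cd79a cells (79.1% to 83.4%) and 83.8% of the 37 Siglech cells (68.0% to 93.8%) had an Ly6d UMI, against 1.15% of Cd3e, 1.92% of S100a8 and 2.0% of Ccr2 cells. The intervals of the Cd79a and Siglech shares overlap, and the log2 ratio of Siglech over Cd79a was 0.17 (0.06 to 0.28). Of the 5 members counted between these classes, Ly6c2 was called higher in Siglech (22.1-fold), against 12.1% of 8940 genes, and none lower, against 8.02%. The 1 cell with most Ly6d in the Ccr2 class held 75 of that class's 131 UMIs. In the unmarked cells the thinned share was 5.01% (3.43% to 7.03%).

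Ly6e shared the high levels of Ly6d in both classes and added the Ccr2 class. It stood at 2464 CPM in Siglech (2268 to 2672), 2223 in Cd79a (2176 to 2271), 1788 in Ccr2 (1747 to 1830), 960 in Cd3e (852 to 1077) and 460 in unmarked cells (442 to 479). Neighbours in this order had intervals that touch only for Siglech and Cd79a. The Ccr2 class was 21.1-fold above the S100a8 class for Ly6e. In that comparison Ly6a, Ly6c2 and Ly6e were called higher, as were 53.9% of 9874 genes, and Ly6g lower, as were 7.01%. Ly6e in the Cd3e class differed from the rest of TBM by a log2 ratio of 0.04 (-0.13 to 0.21).

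Ly6c2 was highest in the Ccr2 class, at 3242 CPM (3186 to 3298), followed by S100a8 (1468), Siglech (1148, 1015 to 1292), Cd3e (737, 643 to 841), unmarked cells (507, 488 to 527) and Cd79a (52.0, 45.0 to 59.8). No neighbouring intervals overlapped. Without the 5 richest cells the Cd3e level was 461 CPM, and with looser marker classes the Cd79a level was 138 CPM. The Ccr2 class was 3.68-fold above the rest of TBM (log2 ratio 1.88, 1.85 to 1.91) and 2.21-fold above the S100a8 class. The log2 ratio over the S100a8 class was 1.14 (1.11 to 1.18), near the median of 1.09 over all genes in that comparison. After thinning, 68.5% of Ccr2 cells (64.3% to 72.6%) and 63.9% of S100a8 cells (61.3% to 66.4%) had an Ly6c2 UMI, against 4.75% of Cd79a cells (3.66% to 6.04%). Of the 502 Ccr2 cells, 85.5% had an Ly6c2 UMI before thinning, and 1 cell had 201. Within the unmarked cells, the 228 with an Elane UMI stood at 951 CPM of Ly6c2 (913 to 990) and the 413 without at 105 (93.3 to 118), a split chosen after the class levels were seen.

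Ly6c1 stayed at or under 13.3 CPM in every TBM class. Of its 21 UMIs, 10 lay in the Ccr2 class (2.47 CPM, 1.19 to 4.55), 4 in Cd3e (13.3 CPM, 3.62 to 34.0), 3 each in S100a8 and unmarked cells, and 1 in Cd79a. In the 37 Siglech cells it had none. Given the near-identical Ly6c2 sequence, it cannot be told from these counts whether the Ly6c1 UMIs in Ccr2 cells come from Ly6c1 itself.

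Ly6a in TBM was mostly a transcript of the Cd79a class, which held 62.7% of its 676 UMIs. The level was 139 CPM in Siglech (95.8 to 196), 111 in Cd79a (101 to 123), 66.4 in Cd3e (40.6 to 103), 16.1 in Ccr2 (12.4 to 20.5), 7.14 in unmarked and 4.60 in S100a8 cells. The Siglech, Cd79a and Cd3e values rest on 33, 424 and 20 UMIs, and each pair of these 3 intervals overlaps. The Siglech and Cd3e values rest on few cells: without the 5 cells with most Ly6a they were 28.2 and 31.6 CPM, and with 5 such cells left out of each group compared, the log2 ratio of Siglech over the rest of TBM fell from 2.23 to 0.11, and that of Cd3e from 1.13 to 0.25.

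In the Cd79a class, Ly6a, Ly6d and Ly6e were at least 2-fold higher than in the rest of TBM, where 31.4% of genes were, and Ly6c2 and Ly6g were lower, where 14% were. In the Siglech class the same 3 members were higher, against 24.2% of genes, and Ly6g was lower, against 4.34%. In the Ccr2 class Ly6c1, Ly6c2 and Ly6e were higher, against 15.7%, and Ly6a, Ly6d and Ly6g lower, against 11.5%. In the Cd3e class Ly6a and Ly6c1 were higher, against 19.6%, and Ly6d and Ly6g lower, against 7.32%. The Cd3e calls of Ly6c1 and Ly6g rest on 4 and 3 UMIs in that class, and the Siglech call of Ly6g on 2.

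**Figure D3:**
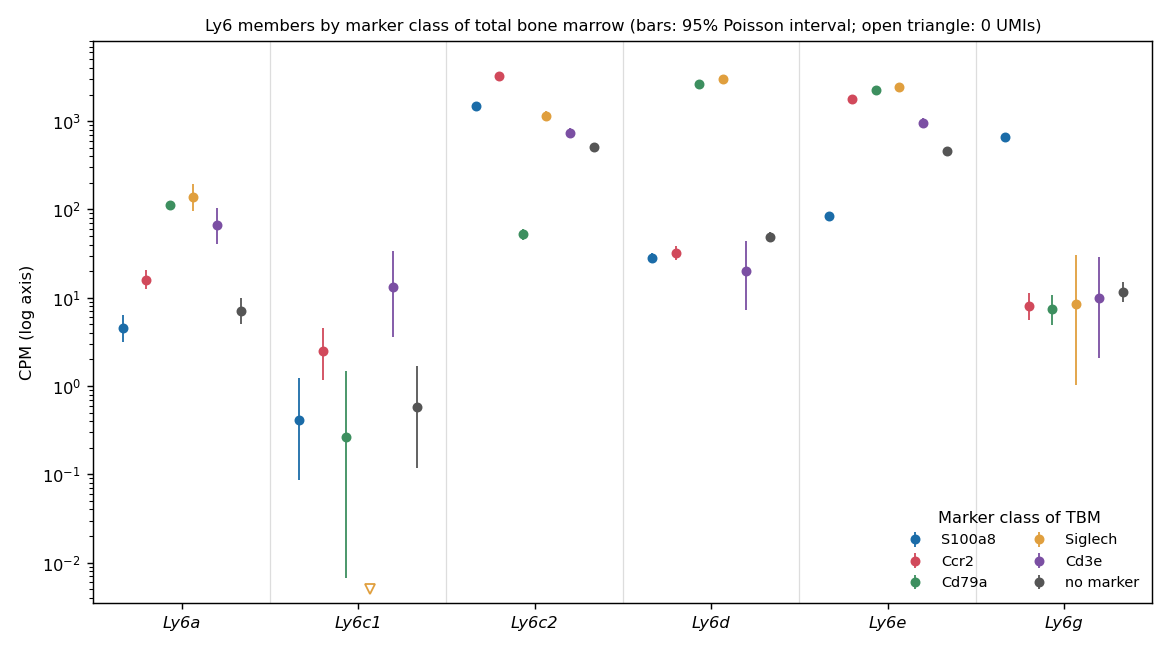
CPM of each member (log axis) in the 6 marker classes of total bone marrow, with 95% Poisson intervals and an open triangle for 0 UMIs. Ly6g is high in the S100a8 class alone (657 CPM), Ly6d in the Cd79a and Siglech classes (2647 and 2983 CPM), and Ly6c2 is lowest in the Cd79a class (52.0 CPM).

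Within the S100a8 class, Ly6g was at least 2-fold higher in the cells rich in granule genes than in the Fcnb cells, and Ly6e at least 2-fold higher in the remaining cells than in the granule cells. The class was divided into 375 cells with at least 2 UMIs of Fcnb, a ficolin of immature neutrophils, 652 further cells in which the secondary granule genes Ltf, Camp and Ngp made up at least 2% of UMIs, and 470 remaining cells. The remaining cells had 472 CPM of Cxcr2, the chemokine receptor of mature neutrophils, against 19.8 in the Fcnb cells. Ly6g stood at 358 CPM in the Fcnb cells (339 to 377), 1107 in the granule cells (1067 to 1148) and 644 in the rest (588 to 703). The granule cells were 3.10-fold above the Fcnb cells for Ly6g (log2 ratio 1.63, 1.54 to 1.72), and 9.49% of 7713 genes were called higher in that comparison. No member was called lower, against 27.2% of genes. Ly6c2 stood at 1629 (1589 to 1670), 1392 (1347 to 1438) and 920 CPM (854 to 991) in the same order. Ly6e stood at 71.0 (62.8 to 79.9), 70.6 (60.7 to 81.6) and 201 CPM (171 to 235), so the last group was 2.85-fold above the granule cells for Ly6e, where 11.7% of 5628 genes were called higher and 14.4%, none of them a member, lower. Median depth fell from 9688 UMIs per Fcnb cell to 3505 and 1498, and its part in these CPM was not tested.

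In the Cd79a class, Ly6a, Ly6d and Ly6e were higher in the cells with IgD transcripts than in the precursor group. Ly6d had its highest CPM, but not its highest share of cells, in the cells with neither mark. The groups were 128 cells with Igll1 or Vpreb1, the surrogate light chain genes of B cell precursors, 552 further cells with Ighd, the IgD constant region, and 637 remaining cells. Ly6a stood at 17.9 CPM in the precursor group (10.2 to 29.0), 68.3 in the remaining cells (56.4 to 82.0) and 239 in the Ighd cells (213 to 268). In the remaining cells 1 cell held 21.7% and 5 cells held 40% of the Ly6a UMIs, and without those 5 cells the level was 42.1 CPM. Without the 5 richest cells it was 6.08 CPM in the precursor group and 219 in the Ighd cells. The Ighd cells were 13.4-fold above the precursor group for Ly6a (log2 ratio 3.74, 3.02 to 4.57). Ly6d stood at 606 (556 to 659), 3459 (3371 to 3549) and 3022 CPM (2926 to 3121), and Ly6e at 1307 (1233 to 1384), 2037 (1970 to 2107) and 3149 CPM (3050 to 3250). Between the Ighd and precursor groups these 3 of 4 members counted were called higher, against 12.6% of 7428 genes, and none lower, against 16.7%. After the same thinning, the Ly6d share was 38.6% of the precursor group (30.1% to 47.6%), 83.5% of the remaining cells (80.4% to 86.4%) and 88.7% of the Ighd group (85.7% to 91.2%). The remaining and Ighd cells were thus in the reverse order of their Ly6d CPM, with overlapping intervals. The Ly6a shares were 3.15% (0.865% to 7.87%) in the precursor group and 18.5% (15.3% to 22.0%) in the Ighd group. Ly6c2 (42.4, 54.6 and 55.5 CPM) and Ly6g (5.58 to 8.17 CPM) had overlapping intervals in all 3 groups.

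**Figure D4:**
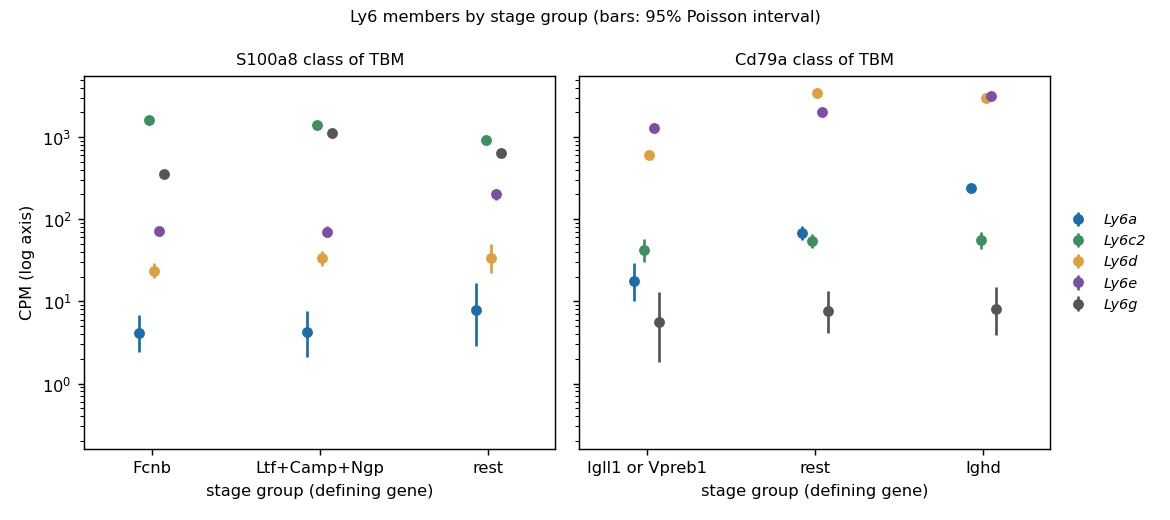
CPM of 5 members (log axis) in the stage groups of the S100a8 class and of the Cd79a class of total bone marrow, with 95% Poisson intervals; Ly6c1 is left out because it has at most 2 UMIs per group. Ly6g peaks in the granule group at 1107 CPM, and Ly6a is 239 CPM in the Ighd group against 17.9 in the group with Igll1 or Vpreb1.

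The 87 Cd3e cells were too few for more than counts. The 33 cells with a Cd8a UMI held 46 Ly6c2 UMIs, 19 of them in 1 cell, and 1 Ly6a UMI. The 5 cells with Cd4 and no Cd8a held 0 Ly6c2 and 9 Ly6a UMIs. The 49 cells with neither held 176 Ly6c2 and 10 Ly6a UMIs. Ly6e was seen in 84.8% of the Cd8a cells, in all of the Cd4 cells and in 89.8% of the cells with neither.

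LK was divided by Elane (at least 0.2% of UMIs, 884 cells), F13a1 (a transglutaminase subunit of monocytes, at least 3 UMIs, 120 cells), Klf1 (an erythroid transcription factor, at least 2, 241 cells), Pf4 (a megakaryocyte chemokine, at least 5, 98 cells) and Ms4a2 (the mast cell and basophil IgE receptor beta chain, at least 2, 99 cells). A further 433 cells had more than 1 of these, 409 of them Elane with F13a1, and 1578 had none. Each class was highest for its own marker list: 5 of 5 granulocyte-monocyte progenitor genes in Elane, 5 of 6 monocyte genes in F13a1, 6 of 6 erythroblast genes in Klf1, 4 of 4 megakaryocyte genes in Pf4 and 5 of 5 mast cell and basophil genes in Ms4a2. Elane, F13a1, Pf4 and Ms4a2 each define a class and are also in its list, so these genes are no check of their own class. All 5 stem and progenitor genes were highest in the unmarked cells.

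The Ly6c2 of LK lay in the granulocyte and monocyte classes. The level was 1018 CPM in Elane cells (1003 to 1033), 344 in F13a1 cells (321 to 368) and 1796 in the 409 cells with both (1768 to 1824). With the marker thresholds doubled, F13a1 cells had 680 CPM. It was 17.5 in Klf1 (13.5 to 22.4), 18.8 in Pf4 (11.3 to 29.4), 15.8 in Ms4a2 (8.83 to 26.0) and 24.7 in unmarked cells (22.3 to 27.3). The Elane class was 58.1-fold above Klf1 (log2 ratio 5.86, 5.50 to 6.24), where 12.8% of 10939 genes were called higher. Ly6a (50 against 1 UMI) was called higher as well, and no member was called lower, against 11.1% of genes. Among thinned cells, 45.7% of Elane cells (42.4% to 49.1%) had an Ly6c2 UMI, against 0.830% of Klf1 cells (0.101% to 2.97%). The Ly6c2 intervals of Klf1, Pf4, Ms4a2 and unmarked cells overlap.

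Ly6e in LK was highest in the Ms4a2 class. The level was 1446 CPM in Ms4a2 (1370 to 1524), 760 in F13a1 (725 to 795), 700 in Elane (687 to 713), 683 in unmarked cells (670 to 696), 364 in Klf1 (345 to 385) and 328 in Pf4 (294 to 365). Ms4a2 was 3.97-fold above Klf1 (log2 ratio 1.99, 1.88 to 2.10), where 11.4% of 8639 genes were called higher and 8.82% lower. The Klf1 and Pf4 intervals overlap, as do those of Elane and the unmarked cells. Median depth was 19325.5 UMIs in Elane and 8636 in Ms4a2, and its part in these levels was not tested.

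Ly6a in LK lay mostly in the unmarked cells. Of its 384 UMIs, 265 were there (17.0 CPM, 15.0 to 19.2), 58 in cells with more than 1 marker, 50 in Elane (2.93 CPM, 2.17 to 3.86), 9 in F13a1, 1 each in Klf1 and Pf4, and 0 in Ms4a2. The 269 LK cells with an Ly6a UMI held 16.6 CPM of Procr, the endothelial protein C receptor of stem cells, against 2.86 in the other LK cells (log2 ratio 2.54, 2.08 to 2.98). Kit was 35.0 and 34.5 CPM in the same cells, and their median depths were 13146 and 13679 UMIs. Cells with Ly6a in LK also had 1111 CPM of Ly6c2 against 656 in those without. Of the 269, 133 had both, and 46.7% of all LK cells had an Ly6c2 UMI. Split by Ly6c2 instead, the pair went the other way. LK cells with an Ly6c2 UMI had 5.14 CPM of Ly6a against 11.9 without (log2 ratio -1.21, -1.51 to -0.91). The direction thus depends on the gene that splits the cells.

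LSK was divided in order by Dntt (152 cells), Flt3 (a receptor of multipotent progenitors, 387), Procr (227) and none of these (301), each at 1 UMI or more. The Dntt class was highest for 6 of 6 plasmacytoid dendritic cell markers (437 CPM summed) and 5 of 6 B cell markers (115 CPM), with Ms4a1 at 0. The Procr class was highest for 4 of 5 stem and progenitor markers, Procr itself among them (827 CPM summed, against 853 in Flt3 cells), and 5 of 6 erythroblast markers (95.7 CPM), and the Flt3 class for 3 of 5 granulocyte-monocyte progenitor markers (1958 CPM) and 4 of 6 monocyte markers (105 CPM). The unmarked LSK cells were highest for 5 of 5 mast cell and basophil markers (215 CPM) and 3 of 4 megakaryocyte markers (316 CPM). The part of these markers in the member levels was not tested.

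Ly6a stood at 207 CPM in the Procr class (188 to 227), 83.1 in Dntt (70.6 to 97.2), 71.8 in Flt3 (64.3 to 79.9) and 85.8 in the unmarked cells (76.0 to 96.4). The unmarked value is 69.9 CPM without the cell rich in Jchain. Procr cells were 2.88-fold above Flt3 cells for Ly6a (log2 ratio 1.53, 1.32 to 1.74), where 4.37% of 10463 genes were called higher. No member was called lower, against 2.81%, and the other 3 classes had overlapping Ly6a intervals. Thinned to 1000 UMIs, 24.2% of Procr cells (18.8% to 30.3%) and 10.1% of Flt3 cells (7.26% to 13.5%) had an Ly6a UMI. Procr cells were the shallowest class, with a median of 7690 UMIs against 10651.

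Ly6e did not separate the LSK classes: it lay between 645 CPM (Flt3) and 706 CPM (Dntt), and the log2 ratio of Procr over Flt3 was 0.10 (0.01 to 0.19). Ly6d stood at 45.0 CPM in the Dntt class (36.0 to 55.7), 85 UMIs in 6 cells or 3.95% of the class, and had 2 UMIs each in Flt3 and Procr cells. Between the Dntt and Flt3 classes Ly6d was called higher (85 against 2 UMIs), against 1.37% of 10278 genes, and Ly6c2 lower (4 against 137 UMIs), against 3.39%. Of the 85 Ly6d UMIs, 82 lay in the 3 cells described above, and without the 5 richest cells the Dntt class had 0.561 CPM. Ly6c2 stood at 29.6 CPM in Flt3, 29.1 in Procr and 21.4 in unmarked cells, and 4 UMIs, all in 1 cell, in Dntt. Without the 5 cells richest in Ly6c2 of each class, the first 3 levels were 1.79, 0 and 0.638 CPM. Ly6g had no UMI in any LSK class and Ly6c1 at most 2.

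**Figure D5:**
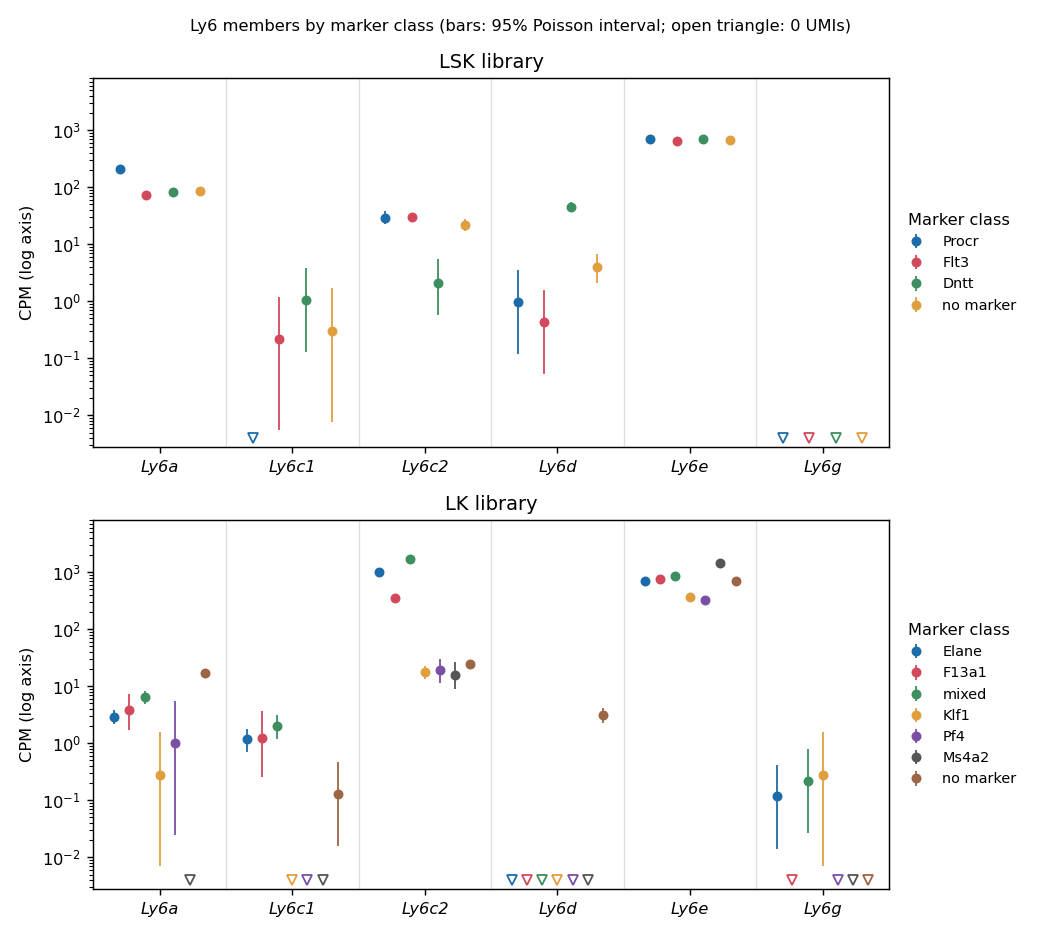
CPM of each member (log axis) in the marker classes of LSK (top) and LK (bottom), with 95% Poisson intervals and open triangles for 0 UMIs. Ly6a is 207 CPM in the Procr class of LSK, Ly6c2 is 1018 CPM in the Elane class of LK and under 25 CPM in Klf1, Pf4, Ms4a2 and unmarked cells, and Ly6e is 1446 CPM in the Ms4a2 class of LK.

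In TBM the levels of other members differed between cells with and without an Ly6a UMI. Cells with an Ly6a UMI (374 of 4214) had 992 CPM of Ly6d against 491 in those without, and 1893 CPM of Ly6e against 843, at median depths of 2299 and 3477 UMIs. Ly6g was lower in the cells with Ly6a, at 112 CPM against 249. Ly6c2 was higher in them, at 2134 CPM against 1238 (log2 ratio 0.79, 0.74 to 0.83). Split by Ly6c2 instead, the pair went the other way. Cells with an Ly6c2 UMI had 17.8 CPM of Ly6a against 58.9 without (log2 ratio -1.73, -1.96 to -1.50), at median depths of 5067.5 and 2022 UMIs. The direction for this pair thus depends on the gene that splits the cells, and no joint pattern can be read. The Cd79a class held most Ly6a UMIs and had the lowest Ly6c2 level. Cells with an Ly6a UMI also lay in deeper classes, among them 49 Ccr2 cells. Median depth was 6026.5 UMIs in Ccr2 and 1944 in Cd79a, and its part was not tested. In LSK, cells with Ly6a had 699 CPM of Ly6e against 637 in those without (log2 ratio 0.13, 0.07 to 0.20), and 10.8 CPM of Ly6c2 against 35.1. These Ly6c2 values rest on few cells. The LSK cells with 61, 41, 40 and 17 Ly6c2 UMIs had no Ly6a UMI, the cell with 36 had 2, and 7 cells had both genes.

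The genes with the profile most like each member, over 16 classes of the 3 libraries and 10396 genes, were ranked by the Pearson correlation of log2(CPM + 10). The classes share libraries and depth, and the correlations are descriptions. Ly6g was nearest to Lrg1 (r = 0.996), followed by Fpr2, 1700047M11Rik, Mmp9 and C5ar1 (0.982). Ly6d was nearest to Atp1b1 (0.959), Iglc3, Spib, Mzb1 and Pik3ap1 (0.949). Ly6a was nearest to Gm17066 (0.942), Nbr1, Fbxo32, mt-Atp8 and Tor4a (0.901), Ly6c2 to Sema4a (0.880), Vsir, Fcer1g, Slpi and Reep5 (0.860), and Ly6e to Apobec3 (0.862), Dock10, Nsf, Aim2 and Anxa6 (0.851). Fpr2 and C5ar1 encode chemoattractant receptors and Mmp9 a gelatinase of neutrophils, Spib and Mzb1 are known from B cells and plasmacytoid dendritic cells, and Apobec3 and Aim2 encode a retrovirus restriction factor and a DNA sensor. Between members the correlations ran from -0.55 (Ly6e with Ly6g) to 0.51 (Ly6c2 with Ly6g).

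Of 35 further genes with a Ly6/uPAR-type domain or a close relation to it, all were in the matrices and 12 (34.3%) had no UMI in any library, against 38.7% of all 32285 genes. At least 200 UMIs were held by 7 of the 35 (20%), against 32.3% of all genes. Cd177, a surface protein of neutrophils, had 1 UMI in LSK, 11 in LK and 5034 in TBM (229 CPM), and 593 CPM in the S100a8 class. Plaur, the urokinase receptor, had 18.6, 13.2 and 78.0 CPM in the 3 libraries and 172 in the S100a8 class. Lynx1 had 46.0 CPM in the Cd79a class, 33.8 in Siglech and at most 1.48 in the other TBM classes, and Ly6i had 13.1 CPM in Ccr2 cells, 12.95 in S100a8 cells and at most 6.64 in the other TBM classes. Cd59a and Cd59b, inhibitors of the complement membrane attack complex, were highest in the unmarked cells of TBM, at 24.5 and 13.7 CPM. Bambi, a TGF-beta pseudoreceptor, had 32.0, 27.6 and 3.56 CPM in LSK, LK and TBM.

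Of the 10 of these genes with at least 20 UMIs between LK and TBM, 1 was at least 2-fold higher in LK and 8 were lower. Over all genes these shares were 27.2% and 16.7%. The median log2 ratio was -2.33 against 0.37 over all genes. A gene can reach 20 UMIs through 1 library, as Cd177 did with 11 UMIs in LK and 5034 in TBM. Between LSK and LK, 3 of 9 were higher and 2 lower, against 19.9% and 3.76% of all genes (median 0.64 against 0.34). Between LSK and TBM, 2 of 10 were higher and 5 lower, against 36.9% and 13.1% of all genes (median -1.24 against 0.67).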

How the data were processed

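Each deposited matrix (LSK, LK, TBM) gives whole-number UMI counts by gene and barcode, which the authors had not normalized. Per the submitters' processing notes they used Cell Ranger 4.0.0 and mm10; the annotation release is not stated there. For LSK, LK and TBM the protocol reports 1070, 3441 and 3984 sorted cells, and the matrices have 1091, 3560 and 4317 barcodes. Those showing 200 or more genes and no more than 10% mitochondrial UMIs were kept (8824 of 8968), and 90 doublets called by Scrublet in scanpy 1.11.5 were removed, leaving 8734 cells. Undetected doublets remain, and free RNA was not corrected. Python 3.11.15, numpy 2.4.6, scipy 1.17.1, pandas 2.3.3 and matplotlib 3.10.9 were used.

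CPM have exact Poisson, ratios exact conditional binomial and shares of cells exact Clopper-Pearson 95% intervals; all cover counting error only. With no replicate libraries no test was run. A gene at 0 was bounded by 3 UMIs. In 2-fold calls only the lower side was raised to 3 UMIs; this was corrected after first counts had been seen, because raising both sides had called genes at 0 in small classes higher. Shares were taken after thinning each cell to 1000 UMIs, which left out 0 LSK, 3 LK and 129 TBM cells. The ratio code was tested on simulated data. Alternatives were doublets kept, a stricter cell filter, cells weighted equally, size factors, thinned sums, other marker thresholds and other thinning depths. Added after the data had been seen were runs without the 5 cells richest in a gene and without shared barcodes.

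Members, marker lists and class thresholds were chosen with earlier results of these data known. Named genes are the 6 members, the class markers, the 5 genes most like each member with at least 200 UMIs, and the other family genes with at least 200 UMIs; single cells, the unmarked split and the stage marker Cxcr2 were named after their values were seen. A comparison of protein sequences was planned; coding sequences of GENCODE M21 transcripts were aligned instead. The 6 members were matched to that annotation by gene identifier, and 3 of them to RefSeq promoter windows.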

Additional observations from a re-analysis of the deposited data

How the results depend on the processing

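No paired analysis was possible because each group has 1 library, and no library could be left out in turn. Under the alternatives run, 117 of 170 recomputed main values stayed within their counting intervals, 53 moved outside them, and none with an interval clear of no difference changed sign. Of the 1363 other values, 353 moved and no ratio among them reversed. Most of these values are CPM or shares of cells, for which a change of sign is not possible. Leaving out the shared barcodes, an alternative chosen after seeing the data, moved none of 26 main values. The intervals cover counting error only, so small moves of abundant members fall outside them, and the cause of the moves was not tested.

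All ratios here are log2. With cells weighted equally, LSK over LK was 3.33 for Ly6a, -5.72 for Ly6c2 and 2.29 for Ly6d, and LK over TBM was -2.20, -0.86 and -10.52 for the same genes and -0.89 for Ly6e. Against the other TBM cells, that weighting gave 2.02 for Ly6c2 in Ccr2, -0.20 for Ly6e in Cd3e, 4.74 for Ly6g in S100a8 and 1.51 for Ly6d in Siglech. With each cell thinned to 1000 UMIs these 4 values were 2.08, -0.18, 4.99 and 1.76, and Ly6a in Siglech was 1.56. Thinned LSK over LK was 3.19 for Ly6a and -6.53 for Ly6c2, and thinned LK over TBM was -0.79 for Ly6c2, -11.11 for Ly6d and -0.90 for Ly6e. With size factors, LSK over LK was 3.43 for Ly6a, -5.19 for Ly6c2 and -0.36 for Ly6e, and LK over TBM was -2.39, -1.32 and -0.79. The stricter cell filter gave -0.95 for Ly6c2 between LK and TBM. With doublets kept, Ly6d in Cd79a was 4.57 and Ly6g in S100a8 was 4.12.

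Looser marker classes gave 1.72 for Ly6c2 in Ccr2, 4.61 for Ly6d in Cd79a and 3.29 for Ly6g in S100a8. Stricter classes gave 2.0, 4.61 and 5.30 for the same, 0.29 for Ly6e in Cd3e and 2.69 for Ly6d in Siglech. Doubled thresholds in LK gave 2.26 for Ly6e in Ms4a2 over Klf1. Without the 5 cells richest in the gene in each group, an alternative also chosen after seeing the data, Ly6a was 0.25 in Cd3e and 0.11 in Siglech, Ly6d was 5.12 in Cd79a and 2.0 in Siglech, Ly6g was 4.59 in S100a8, and Ly6c2 was -6.71 for LSK over LK. That setting gave no value for Ly6d between LSK and LK, or for Ly6g, because no UMI remained in LK.

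The share of cells with a UMI depends on the depth at which it is read. Thinned to 2000 UMIs and not thinned, it was 18.7% and 51.9% for Ly6a in LSK, 29.2% and 46.7% for Ly6c2 in LK, 76.8% and 89.7% for Ly6d in the Cd79a class, and 66.7% and 70.1% for Ly6g in the S100a8 class. Counting genes with at least 1 UMI in place of 20 raised the genes called higher in LSK than in LK from 2590 to 4329. The 37 Siglech and 87 Cd3e cells limit what can be read there.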
